A study of Mus musculus with 4 samples.

Results

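The claudins described here are 10 genes of the family, Cldn1 to Cldn8, Cldn12 and Cldn15, chosen by gene symbol on a mouse array. A named probe was found for 9 of the 10, out of 16390 genes with a named probe in the series, and each of the 9 had 1 probe. Cldn3 is not analysed here. Claudins are small proteins that span the membrane of epithelial cells and join neighbouring cells at the tight junction. Some members seal the space between cells, others form pores in it that pass selected ions, so the mixture a cell makes sets how leaky the layer is. In the small intestine the pore-forming Cldn2 is known mainly from crypts, Cldn15 supplies sodium to the gut lumen for sodium-coupled sugar uptake, and Cldn7 is an abundant epithelial member held at the membrane together with the adhesion protein Epcam.

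The study asked how small intestinal cells that carry Dclk1, a kinase used as a tuft cell marker, differ from cells that do not, in tumors and in normal tissue. RNA from 4 sorted samples was amplified, labelled with Cy5 and hybridised to 1 array each. Dclk1+ tumor cells came from tumors of 7 pooled Dclk1CreERT2/+; ApcMin/+ mice older than 16 weeks and were sorted by GFP. Dclk1- tumor cells came from 1 mouse of that genotype aged 17 weeks. Dclk1+ normal cells were pooled from 2 Dclk1CreERT2/+ mice aged 26 weeks, and Dclk1- normal cells came from 1 such mouse aged 26 weeks. All mice were male and all carried the Dclk1CreERT2 allele, in which Cre is tied to the Dclk1 gene, while ApcMin is an Apc mutation that gives rise to intestinal tumors. The labels do not state what drives GFP or how the other samples were gated. Age, genotype and histology cannot be told apart in the tumor against normal comparisons. With 1 array in a group there is no replicate, no error bar and no test, so each difference compares a pair of arrays.

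Levels are given as normalised intensity, the linear value in the authors' deposited table, which leaves a probe out where it is dim. Its factor differs between arrays, so differences are given as log2 differences of background-corrected, quantile-normalised signals. A log2 difference of 1 is 2-fold, and a positive one means higher in the sample named before "against". A probe counted as above background where its spot exceeded the mean of the blank spots by more than 2 SD. This was met by 11564 genes in Dclk1+ and 10914 in Dclk1- tumor cells, against 12073 in Dclk1+ and 11709 in Dclk1- normal cells. Dclk1 itself had a normalised intensity of 61.8 in Dclk1+ and 9.49 in Dclk1- tumor cells, against 736 in Dclk1+ and 179.8 in Dclk1- normal cells, higher in the Dclk1+ sample of each pair (log2 difference 0.69 in tumor, under 2-fold, and 1.41 in normal). Dclk1- normal cells had more Dclk1 signal than Dclk1+ tumor cells, whereas the summed signal of 11 tuft markers was 17177 in Dclk1+ and 238 in Dclk1- tumor cells, against 70860 in Dclk1+ and 375 in Dclk1- normal cells. The tuft cell list had a median log2 difference of 3.10 in tumor and 3.92 in normal, with 7 of 10 and 9 of 11 detected genes at least 2-fold higher in Dclk1+ cells. Over all genes the shares higher were 1.76% in tumor and 5.66% in normal. In a bulk signal, fewer cells of a type and less RNA per cell cannot be told apart.

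The array detected the claudins unevenly. Cldn2, Cldn4, Cldn6, Cldn7, Cldn12 and Cldn15 (6 members) were above background on all 4 arrays. Cldn1 was above background only in Dclk1+ tumor cells, Cldn5 only in Dclk1- tumor cells, and Cldn8 on none. Cldn2, Cldn15 and Cldn7 (3 members) were 2-fold apart in at least 1 comparison, and the first pair of these carried the widest differences of the family.

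**Figure D1:**
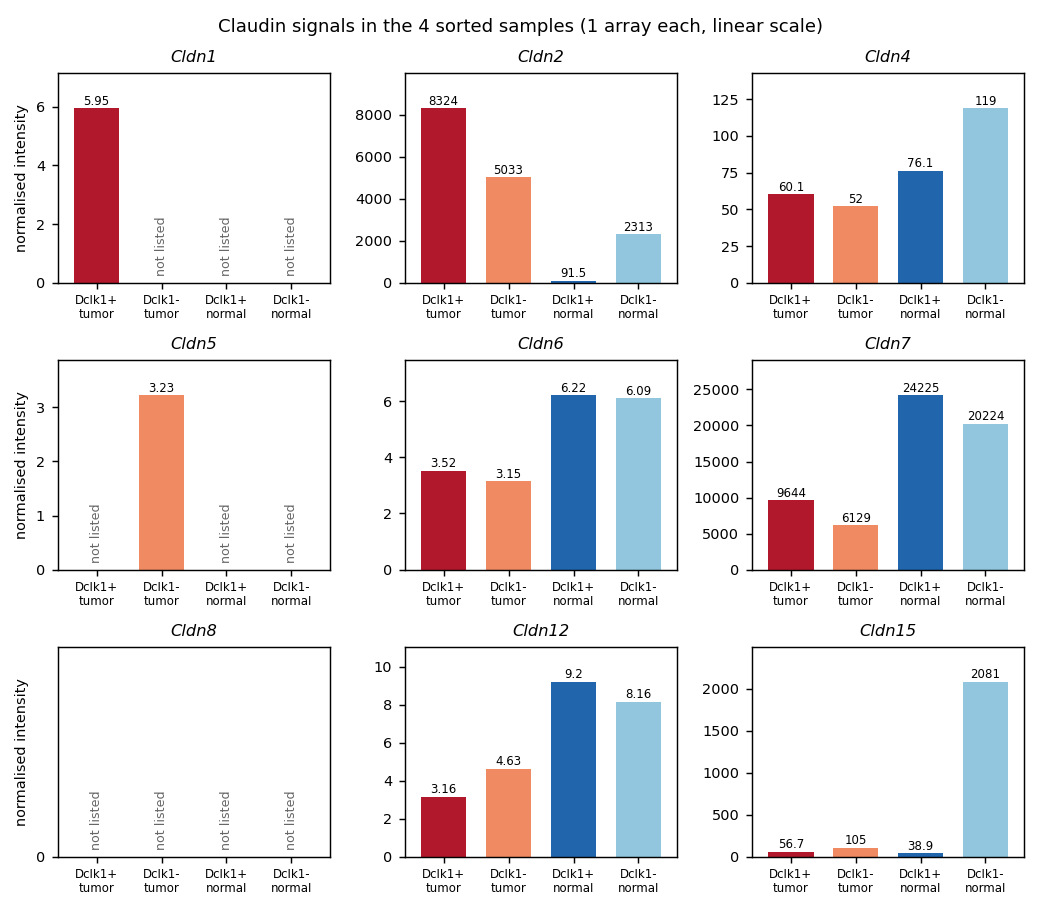
Normalised intensity (linear, arbitrary units, each panel with its own axis from 0) of the 9 claudins with a named probe, 1 bar per array, with tumor cells (red) left of normal cells (blue) and Dclk1+ left of Dclk1- in each. Cldn2 is low only in Dclk1+ normal cells (91.5), and Cldn15 is high only in Dclk1- normal cells (2081).

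Because Cldn2 and Cldn15 differed most between the samples, the 250 bases before their annotated starts are shown, from RefSeq on GRCm38.p6, 5′ to 3′ on the plus strand. Capitals mark matches to any of 6 short motifs searched on both strands. The Cldn2 window is chrX:139800558-139800807 and the Cldn15 window is chr5:136967619-136967868.
Cldn2: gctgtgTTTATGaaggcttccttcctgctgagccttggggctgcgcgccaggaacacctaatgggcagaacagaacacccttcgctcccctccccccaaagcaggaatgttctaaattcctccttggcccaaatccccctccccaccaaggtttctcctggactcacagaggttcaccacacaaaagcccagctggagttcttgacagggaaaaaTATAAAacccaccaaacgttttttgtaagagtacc
Cldn15: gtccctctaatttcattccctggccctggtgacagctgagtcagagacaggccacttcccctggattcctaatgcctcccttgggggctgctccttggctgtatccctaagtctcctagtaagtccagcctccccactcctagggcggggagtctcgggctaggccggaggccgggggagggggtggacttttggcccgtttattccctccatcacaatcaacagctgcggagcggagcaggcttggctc
In the Cldn2 window the capitals are the CDX motif TTTATG, 244 bases before the start, and the TATA box TATAAA, 35 bases before it. The Cldn15 window held none of the 6. Over 32851 RefSeq windows of this length, TTTATG was found in 10.8% and TATAAA in 12.4%. The other motifs were the TCF/LEF motif CTTTGAT (3.21% of windows), the HNF4 motif CAAAGTC (3.84%), which shares CAAAG with the reverse strand of the TCF/LEF motif, the HNF1 motif GTTAAT (6.43%) and the Snail E-box CAGGTG (17.2%). Among the other members, the E-box lay 14 bases before the Cldn4 start, 57 and 97 bases before 1 of the Cldn7 starts and 93 bases before the Cldn6 start, and GTTAAT lay 241 bases before the Cldn1 start. Windows were matched for 9 of the 10 members, and the motifs were picked after the windows had been read. A match describes letters, not binding.

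Cldn2 (gene ID 12738, chromosome X), which forms a pore for cations and water, was bright in both tumor samples and dim in normal Dclk1+ cells. Its normalised intensity was 8324 in Dclk1+ and 5033 in Dclk1- tumor cells, against 91.5 in Dclk1+ and 2313 in Dclk1- normal cells. Both tumor levels were above both normal ones, Dclk1+ cells having the highest level in tumor and by far the lowest in normal. Between the Dclk1+ samples, tumor was higher than normal by a log2 difference of 5.73, or 53.0-fold. Between the Dclk1- samples the same comparison gave 1.38, or 2.61-fold. Within normal tissue Dclk1+ cells were lower than Dclk1- cells, with a log2 difference of -3.99, and within tumors the difference was 0.35, under 2-fold. The difference between Dclk1+ and Dclk1- cells was therefore 4.35 log2 units apart between tumor and normal, untested. Over 6 other ways of processing the same arrays the tumor against normal difference in Dclk1+ cells was between 5.68 and 6.88, and the normal Dclk1+ against Dclk1- difference between -4.84 and -4.03. The tumor Dclk1+ against Dclk1- difference ranged from 0.16 to 1.15, past 2-fold with the local background subtracted.

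Cldn15 (gene ID 60363, chromosome 5), the sodium-passing claudin of the small intestine, was bright in 1 sample. Its normalised intensity was 56.7 in Dclk1+ and 105 in Dclk1- tumor cells, against 38.9 in Dclk1+ and 2081 in Dclk1- normal cells. The 3 lower samples lay within a few-fold of each other and far under Dclk1- normal cells. Within normal tissue Dclk1+ cells were lower than Dclk1- cells with a log2 difference of -4.36, or 20.6-fold. Between the Dclk1- samples tumor was lower than normal, at -3.53, or 11.5-fold. Within tumors Dclk1+ against Dclk1- cells gave -0.57, and Dclk1+ tumor against Dclk1+ normal cells gave 0.26, both under 2-fold. The tumor value passed 2-fold with the blank mean (-1.07) or the local background (-2.16) subtracted. Across the 6 other processings the normal Dclk1+ against Dclk1- difference ranged from -5.89 to -4.39, and the Dclk1- tumor against normal difference from -4.31 to -3.18.

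Cldn7 (gene ID 53624, chromosome 11) was bright on every array and lower in tumor. Its normalised intensity was 9644 in Dclk1+ and 6129 in Dclk1- tumor cells, against 24225 in Dclk1+ and 20224 in Dclk1- normal cells. Both tumor samples lay below both normal samples. Tumor against normal gave a log2 difference of -0.92 in Dclk1+ cells, just short of 2-fold, and -1.61 in Dclk1- cells, past it. With the arrays scaled by their medians the Dclk1+ value was -1.17, and in the authors' deposited table -1.33, where the median of all genes was itself shifted to -0.40. Dclk1+ against Dclk1- cells gave 0.35 in tumor and -0.34 in normal, and the sign of the normal value turned to 0.26 in the authors' deposited table, beside a median of 0.27 over all genes there, and to 1.67 with the local background subtracted. The local background beside this probe was itself bright, at 6692 around a spot of 6363 in Dclk1+ tumor cells, so that subtracting it leaves no Cldn7 signal there. That subtraction moved Dclk1- tumor against Dclk1- normal to -0.43. A local background that rises with the spot was not particular to this probe. Over all probe spots the correlation of log spot with log local background was between 0.92 and 0.98 on the 4 arrays.

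Cldn4, a sealing claudin that also serves as the receptor for an enterotoxin of Clostridium perfringens, was dim on all 4 arrays. Its normalised intensity was 60.1 in Dclk1+ and 52.0 in Dclk1- tumor cells, against 76.1 in Dclk1+ and 119 in Dclk1- normal cells. Dclk1- normal cells had the highest value, and no comparison reached 2-fold on the quantile-normalised scale. Dclk1+ against Dclk1- cells gave 0.01 in tumor and -0.44 in normal, and tumor against normal gave -0.11 in Dclk1+ and -0.55 in Dclk1- cells. The last of these passed 2-fold with the blank mean subtracted, at -1.01, and in the authors' deposited table, at -1.19, beside a median of -0.50 over all genes there.

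The other members lay close to background, where the offset of the background correction compresses differences. Cldn12, which lacks the usual PDZ-binding end of claudins, had normalised intensities of 3.16 in Dclk1+ and 4.63 in Dclk1- tumor cells, against 9.20 in Dclk1+ and 8.16 in Dclk1- normal cells. Cldn6, known from embryonic epithelia, had 3.52 in Dclk1+ and 3.15 in Dclk1- tumor cells, against 6.22 in Dclk1+ and 6.09 in Dclk1- normal cells. Both genes were lower in tumor in the authors' deposited table, where the median of all genes was itself shifted to -0.40 in Dclk1+ and -0.50 in Dclk1- cells. However, the log2 differences of their quantile-normalised signals were between -0.09 and 0.00 in all 4 comparisons. Cldn1, needed for the skin barrier, was listed in Dclk1+ tumor cells alone, at 5.95. There it was at least 1.03-fold higher than in Dclk1- tumor cells and at least 1.06-fold higher than in Dclk1+ normal cells, the bound being the dimmest signal above background on the other array. Cldn5, the main claudin of blood vessel endothelium, was listed in Dclk1- tumor cells alone, at 3.23, which was at least 1.02-fold above Dclk1+ tumor and at least 1.03-fold above Dclk1- normal cells. Of the 14 endothelial markers, Pecam1 and Cdh5 were not above background on any array. Between Dclk1- tumor and Dclk1- normal cells, 10 were above background on either array. Of these, 2 were 2-fold higher in tumor, Sox17 (1.23) and Egfl7 (1.09), and 0 were 2-fold lower. Over all genes 5.83% were 2-fold higher there. Kdr went the other way, at -0.33. Sox17 was also higher in Dclk1+ tumor than in Dclk1+ normal cells, at 0.84, where Cldn5 was not listed. The summed normalised intensity of 14 endothelial markers was 229 in Dclk1+ and 276 in Dclk1- tumor cells, against 236 in Dclk1+ and 112 in Dclk1- normal cells, and its part in the Cldn5 signal was not tested. Cldn8, known from distal colon and kidney, was listed on no array.

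Counted over the family, the comparison of Dclk1+ with Dclk1- cells gave different numbers in each tissue. In tumors 8 members were above background on either array. Of these, 0 were 2-fold higher in Dclk1+ cells and 0 were 2-fold lower, with a median log2 difference of 0.00. Over all 12197 genes above background in that pair, 1.76% were 2-fold higher and 2.13% 2-fold lower. In normal tissue 6 members were above background, of which 0 were 2-fold higher and 2, Cldn2 and Cldn15, were 2-fold lower, with a median of -0.39. Over all 12844 genes the shares were 5.66% higher and 5.92% lower. The median over all genes was 0.01 in both tissues. The difference between the tissues was 2-fold or more for 2 members, again Cldn2 and Cldn15, against 8.82% of 13465 genes.

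For tumor against normal, 7 members were above background in Dclk1+ cells. Cldn2 alone was 2-fold higher and 0 were 2-fold lower, with a median of -0.03, while over all 12869 genes 4.27% were 2-fold higher and 4.20% 2-fold lower. In Dclk1- cells 7 members were above background, 1 was 2-fold higher (Cldn2) and 2 were 2-fold lower (Cldn15 and Cldn7), with a median of -0.03. Over all 12340 genes 5.83% were 2-fold higher and 5.24% 2-fold lower. With so few members, each of these shares turns on a single gene or a pair. The comparisons share arrays, so they are not independent of each other.

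**Figure D2:**
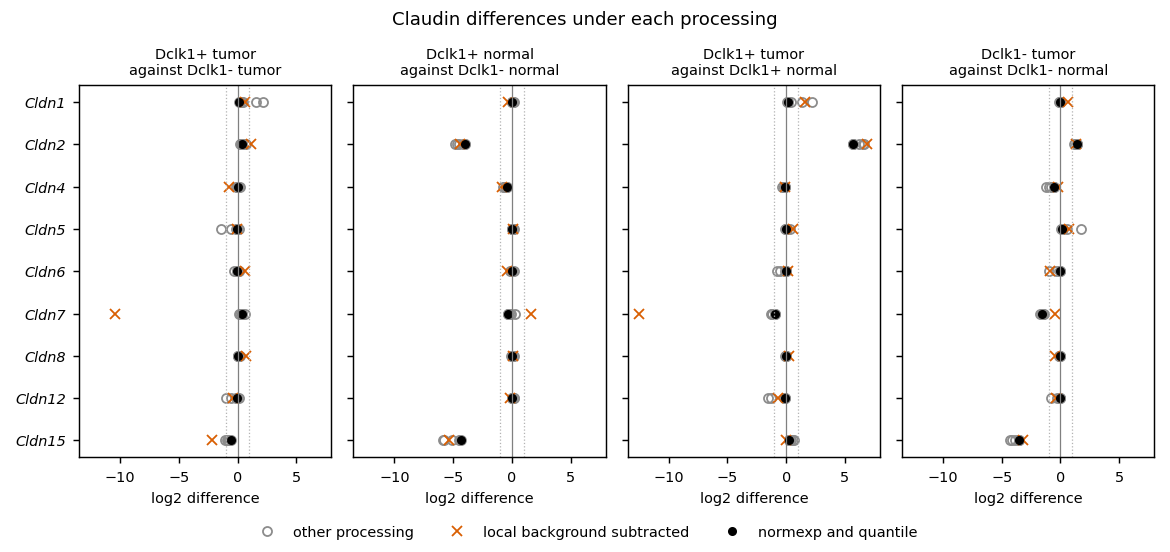
Log2 differences of the 9 claudins in the 4 comparisons (positive is higher in the sample named before "against"), with black dots for normexp and quantile normalisation, open circles for the other processings, crosses for local background subtraction and dotted lines at 2-fold. Cldn2 and Cldn15 stay far from 0 in the comparisons that involve Dclk1+ normal cells (Cldn2) or Dclk1- normal cells (Cldn15), and Cldn7 moves to -10.43 and -12.53 when the local background is subtracted.

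Markers of other gut cell types also differed between these samples. Paneth cells are the antimicrobial cells at the crypt base, where Cldn2 is known. Of 8 Paneth markers 4 had a probe, and their summed normalised intensity was 14147 in Dclk1+ and 20918 in Dclk1- tumor cells, against 157 in Dclk1+ and 4704 in Dclk1- normal cells, low in the sample where Cldn2 was low. In Dclk1+ cells 3 of the 4 Paneth markers were 2-fold higher in tumor than in normal, beside 4.27% of all genes. Mmp7 at 6.60 and Defa5 at 3.91 on the log2 scale were among them. Mmp7 alone supplied most of each tumor sum of the Paneth markers (Dclk1+ 11241.5, Dclk1- 11730.9), so those sums largely follow 1 gene. In normal tissue all 4 of those with a probe were 2-fold lower in Dclk1+ than in Dclk1- cells, beside 5.92% of all genes. In tumor 3 of the 4 were 2-fold lower in Dclk1+ than in Dclk1- cells (median -1.32), beside 2.13% of all genes. Cldn2 gave 0.35 in that comparison. Of the 8 crypt stem markers, 6 were above background in Dclk1+ tumor or Dclk1+ normal cells. Ascl2 and Slc12a2 were 2-fold higher in Dclk1+ tumor than in Dclk1+ normal cells, at 1.22 and 1.67, and 0 were 2-fold lower. Olfm4 (-0.28) and Axin2 (-0.14) went the other way, under 2-fold. Over all genes 4.27% were higher there, and Cd44 was not above background on any array. The summed crypt stem signal was 1277 in Dclk1+ and 807 in Dclk1- tumor cells, against 568 in Dclk1+ and 403 in Dclk1- normal cells. Slc12a2 at 539 and Ascl2 at 432 made up most of the Dclk1+ tumor sum. Goblet markers were also low in Dclk1+ normal cells, with 6 of 7 at least 2-fold under Dclk1- normal cells. Their median log2 difference was -5.36, and 5.92% of all genes were 2-fold lower there. In tumor 4 of the 7 goblet markers were 2-fold lower in Dclk1+ than in Dclk1- cells (median -1.26), beside 2.13% of all genes. Agr2 had 10404 in Dclk1+ and 8875 in Dclk1- tumor cells, against 72.8 in Dclk1+ and 8436 in Dclk1- normal cells. Of the 7 goblet markers 3 were 2-fold higher in Dclk1+ tumor than in Dclk1+ normal cells, beside 4.27% of all genes. These were Agr2 at 6.22, Spink4 at 4.48 and Spdef at 2.36. The other 4, Clca1, Zg16, Tff3 and Muc2, were under 2-fold there. In Dclk1- cells those 4 were 2-fold lower in tumor than in normal, as were 5.24% of all genes, whereas Cldn2 was higher. The part of these cells in the Cldn2 signal was not tested.

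Enterocytes are the absorptive cells of the villus, and Cldn15 is a claudin they are known to make. Of 10 enterocyte markers with a probe, 7 were 2-fold lower and 1, Fabp1, was 2-fold higher in Dclk1+ than in Dclk1- normal cells. Their median log2 difference was -2.91, and over all genes 5.92% were lower and 5.66% higher. In Dclk1- tumor cells 8 were 2-fold lower than in Dclk1- normal cells, with a median of -1.92, beside 5.24% over all genes. Slc5a1, the sodium-coupled glucose carrier, had 75.5 in Dclk1+ and 355 in Dclk1- tumor cells, against 72.3 in Dclk1+ and 1374 in Dclk1- normal cells. Krt20, a keratin of mature villus cells, had 463, 5699, 428 and 23999 in the same order of samples. Both were highest in Dclk1- normal cells, as Cldn15 was, whereas Fabp1 and Vil1 were highest in Dclk1+ normal cells. In tumor 6 of the 10 enterocyte markers were 2-fold lower in Dclk1+ than in Dclk1- cells and 0 were higher. Their median was -1.65, beside 2.13% of all genes lower, and Cldn15 gave -0.57 there. The list's summed normalised intensity was 22421 in Dclk1+ and 24175 in Dclk1- tumor cells, against 87076 in Dclk1+ and 89808 in Dclk1- normal cells. Fabp1 and Vil1, neither of them 2-fold lower in Dclk1+ than in Dclk1- normal cells, made up most of the Dclk1+ normal sum, at 63956 and 19096. Goblet markers (7 with a probe) summed to 22891 in Dclk1+ and 43466 in Dclk1- tumor cells, against 8040 in Dclk1+ and 181171 in Dclk1- normal cells. Enteroendocrine markers summed to 1232 in Dclk1+ and 661 in Dclk1- tumor cells, against 6515 in Dclk1+ and 37984 in Dclk1- normal cells. Sct alone made up most of both Dclk1+ sums, at 908 in tumor and 6275 in normal cells. The part of these cell types in the Cldn15 signal was not tested.

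The genes whose pattern over the 4 arrays lay nearest to each of the 2 widest-ranging claudins were found by the Euclidean distance between log2 signals centred on their mean, among 13464 genes above background on any array. Nearest to Cldn2 were Ptgr1 at a distance of 1.00, Csrp2 at 1.03 and Tedc2 at 1.09. Ptgr1, a reductase of prostaglandins, had normalised intensities of 5562 in Dclk1+ and 5248 in Dclk1- tumor cells, against 176 in Dclk1+ and 3761 in Dclk1- normal cells. Csrp2, a LIM-domain protein, had 3673, 3167, 128 and 1290 in the same order. All 3 genes shared with Cldn2 the low value in Dclk1+ normal cells. Nearest to Cldn15 were Rab30 at 0.34, Ly6m at 0.45 and Slc27a4 at 0.50. Slc27a4, a fatty acid transport protein, had 106 in Dclk1+ and 159 in Dclk1- tumor cells, against 162 in Dclk1+ and 2952 in Dclk1- normal cells. Rab30, a small GTPase, had 73.6, 137, 55.0 and 1818 in the same order. These likenesses rest on 4 arrays and describe the pattern only.

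**Figure D3:**
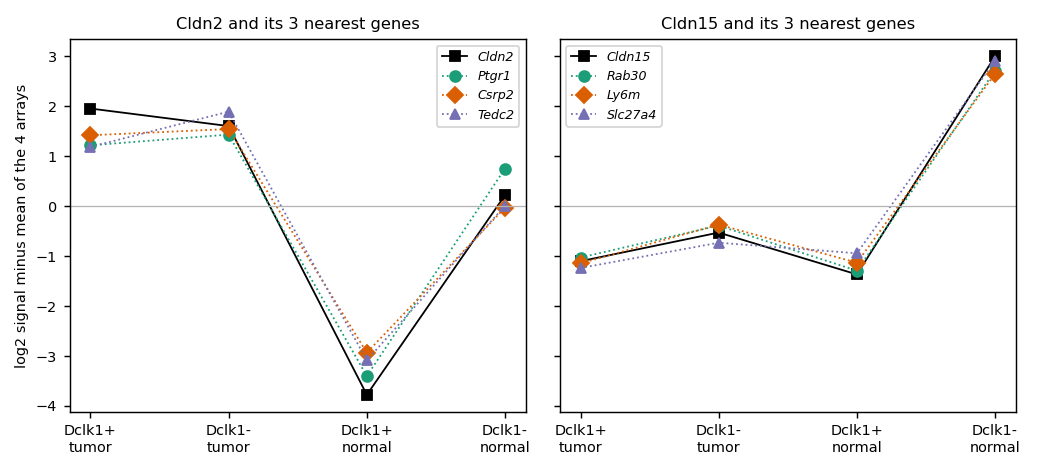
Log2 signal minus the gene's mean over the 4 arrays, for Cldn2 (left) and Cldn15 (right) with their 3 nearest genes, 1 point per array, tumor samples left of normal ones, with lines drawn only to guide the eye. The Cldn2 panel dips at Dclk1+ normal cells and the Cldn15 panel peaks at Dclk1- normal cells.

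The remaining claudins on the array were mostly dim. Of 14 others listed, 9 had a named probe. Cldn14, best known from the inner ear, was the only one of them past 2-fold in any comparison, and it had 142 in Dclk1+ and 16.6 in Dclk1- tumor cells, against 164 in Dclk1+ and 44.6 in Dclk1- normal cells. It was higher in the Dclk1+ sample of each pair, with log2 differences of 1.23 in tumor and 0.94 in normal, while tumor against normal gave -0.05 in Dclk1+ and -0.33 in Dclk1- cells. Cldn18, known from stomach and lung, was dim, with a value of 9.80 in Dclk1+ tumor and 2.81 in Dclk1- tumor cells and of 33.3 in Dclk1+ normal cells, and was not listed in Dclk1- normal cells. Cldn10 and Cldn17 were not above background on any array.

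The membrane proteins that sit beside claudins in the tight junction had 12 of 14 genes with a probe, 9 of them above background in each pair. Ildr1, an angulin of the corner where 3 cells meet, had 132 in Dclk1+ and 14.6 in Dclk1- tumor cells, against 647 in Dclk1+ and 10.8 in Dclk1- normal cells. Dclk1+ cells were higher, at 1.20 on the log2 scale in tumor and 2.94 in normal, and in normal tissue this was the opposite direction to Cldn2 and Cldn15. Occludin (Ocln), a strand protein with MARVEL domain, had 82.6 in Dclk1+ and 79.2 in Dclk1- tumor cells, against 72.5 in Dclk1+ and 294 in Dclk1- normal cells. It was highest in Dclk1- normal cells, at -1.43 for normal Dclk1+ against Dclk1- cells and -1.21 for Dclk1- tumor against normal cells. In Dclk1+ cells Ildr1 was lower in tumor than in normal at -1.61, F11r, the adhesion molecule JAM-A, at -1.23 and Marveld3 at -1.22. In all, 1 partner was 2-fold higher in Dclk1+ tumor than in Dclk1- tumor cells, 1 was higher and 1 lower in normal, 3 were lower in tumor in Dclk1+ cells and 1 was lower in tumor in Dclk1- cells. The list's medians were -0.07, 0.07, -0.37 and -0.37 in that order of comparisons. The shares over all genes were 1.76% higher in tumor, 5.66% higher and 5.92% lower in normal, and, for tumor against normal, 4.20% lower (Dclk1+) and 5.24% lower (Dclk1-), and 1 gene of 9 moves such a share far.

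Scaffold and polarity proteins, which anchor claudins to the cell's skeleton and place the junction, had 20 of 25 genes with a probe. Pard6b, a subunit of the PAR polarity complex, had 476 in Dclk1+ and 856 in Dclk1- tumor cells, against 717 in Dclk1+ and 2688 in Dclk1- normal cells. It was lower in Dclk1+ than in Dclk1- cells at -1.09 in tumor and -2.08 in normal, and lower in tumor at -1.29 in Dclk1- cells. Prkcz, the atypical kinase of the same complex, was lower in tumor at -1.15 in Dclk1+ and -1.20 in Dclk1- cells. Between 16 and 18 scaffold genes were above background in a pair, and 0 were 2-fold higher in any of the 4 comparisons, near the 1.76% to 5.83% over all genes. In tumor 1 of 16 was 2-fold lower in Dclk1+ than in Dclk1- cells, beside 2.13% over all genes. In normal it was 1 of 18, beside 5.92%. For tumor against normal, 1 of 17 was lower in Dclk1+ cells (4.20% over all genes) and 2 of 18 in Dclk1- cells (5.24%). The medians of the list were between -0.06 and 0.03.

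Proteins that hold or cleave claudins had 7 of 9 genes with a probe, all above background. St14, the protease matriptase, which cleaves Epcam, had 4089 in Dclk1+ and 3144 in Dclk1- tumor cells, against 2848 in Dclk1+ and 9412 in Dclk1- normal cells, again highest in Dclk1- normal cells. It gave -2.24 for normal Dclk1+ against Dclk1- cells and -1.34 for Dclk1- tumor against normal cells. Epcam, the partner of Cldn7, had 850 in Dclk1+ and 1436 in Dclk1- tumor cells, against 2624 in Dclk1+ and 3416 in Dclk1- normal cells. Like Cldn7 it was lower in both tumor samples, at -1.08 in Dclk1+ and -0.97 in Dclk1- cells. Spint1, an inhibitor of matriptase, was lower in tumor at -0.98 in Dclk1+ cells, just under 2-fold, and -1.33 in Dclk1- cells. The list's medians were -0.08 in tumor and -0.19 in normal for Dclk1+ against Dclk1- cells, and the tumor against normal medians were 0.00 (Dclk1+) and -0.45 (Dclk1-).

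Adherens junction and desmosome genes, the adhesive belts below the tight junction, all had a probe (16 of 16). Cdh17, the liver-intestine cadherin, had 6571 in Dclk1+ and 11096 in Dclk1- tumor cells, against 19674 in Dclk1+ and 26267 in Dclk1- normal cells. It was just past 2-fold lower in each of the 4 comparisons, between -1.22 and -1.05, and each call was lost under some other processing. With the local background subtracted it gave -0.44 for Dclk1+ against Dclk1- tumor cells and -0.54 for Dclk1+ tumor against normal cells. It gave -0.42 for normal Dclk1+ against Dclk1- cells in the authors' deposited table, and -0.97 for Dclk1- tumor against normal cells with median scaling. Nectin3 was lower in Dclk1+ than in Dclk1- cells at -1.37 in tumor and -1.14 in normal, and under 2-fold for tumor against normal. With the local background subtracted these became -0.15 and -0.67. Of 15 or 16 genes above background, 0 were 2-fold higher in any comparison, near the 1.76% to 5.83% over all genes. Those 2-fold lower in Dclk1+ than in Dclk1- cells were 2 of 15 in tumor and 2 of 16 in normal. Over all genes these shares were 2.13% and 5.92%. For tumor against normal, 1 of 15 was lower in Dclk1+ cells (4.20% over all genes) and 1 of 16 in Dclk1- cells (5.24%). Over the other claudins, these junction lists and a list of transcription factors, 31 differences of 16 genes passed 2-fold. Of these, 23 stayed past it in all 6 other processings and 8 did not, namely the 4 of Cdh17, 2 of Nectin3, Pard6b in tumor and Klf4 for Dclk1+ tumor against normal cells. The Pard6b value turned to 6.45 with the local background subtracted.

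**Figure D4:**
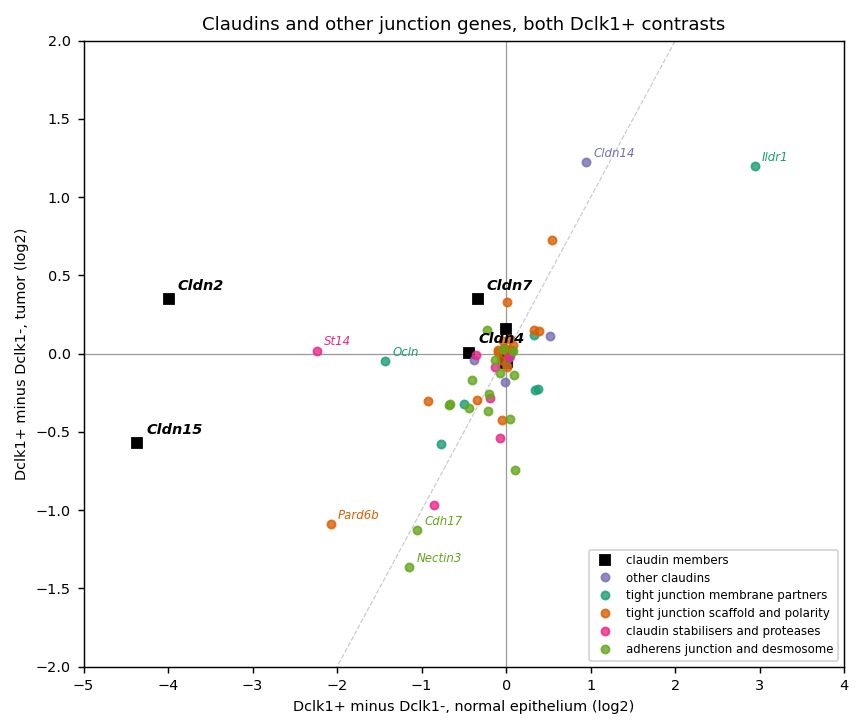
Log2 difference of Dclk1+ minus Dclk1- cells in tumor (vertical) against the same difference in normal tissue (horizontal), 1 point per gene, with a dashed line of equal differences. Genes of the other lists are coloured by list and shown where above background on any array. Black squares mark all 9 claudins, including Cldn8, which was above background on none. Cldn2 and Cldn15 lie far to the left, at 0.35 and -0.57 in tumor. St14, Pard6b, Ocln, Nectin3 and Cdh17 lie on the same side, nearer the middle. Ildr1 lies to the right and above the horizontal line at 0, being higher in Dclk1+ cells in both tissues.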

How the data were processed

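The 4 arrays were 1-colour. Per the file headers, each scanner file gives the median intensity of a spot and of its local background, joined from scans at 3 gains by straight-line fits, with nothing subtracted. The authors' deposited series table holds intensity values with dim probes left empty. Set against the scanner values, a constant close to the blank mean was subtracted and each array's median put near 25 (24.99 to 25.01). The labels do not state its scale.

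Spot intensities of 23473 probes were corrected with normexp (offset 50, all spots, 2736 of them blank) in limma 3.58.1 under R 4.3.3. Flagged and control spots were dropped before quantile normalisation between arrays on log2. Further steps used Python 3.11.15 with pandas 2.3.3. Probes were named through the platform table and RefSeq symbols: 16631 have 1 symbol and 6842 are unnamed here. No genome build of the array is stated in the labels. A difference counted where the gene was above background on either array compared. The same steps were tested on simulated data.

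Named were all members, Dclk1, in each junction or factor list up to 4 genes 2-fold apart per comparison, up to 4 moving markers beside a member, and the 3 nearest genes of members ranging over 2 log2 units or more. Cldn10, Cldn17, Cldn18 and undetected markers were named after their values were seen. The members, lists and rules were chosen with earlier results of these data known. With 1 array in a group, precision is limited by the number of arrays. Alternatives tried were an offset of 16, subtraction of the blank mean or of the local background, median and 75th percentile scaling, the authors' table, all probes of a gene averaged, no filter on background or one on both arrays, and a 4-fold threshold.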

Additional observations from a re-analysis of the deposited data

Results flagged for a closer look

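Cldn2 differed between Dclk1+ and Dclk1- cells in opposite directions in the tissues. The log2 difference was 0.35 in tumor and -3.99 in normal, 4.35 apart, and the difference was not tested because each group has 1 array. The value in tumor is small, under 2-fold, and ranged from 0.16 to 1.15 over the 6 other processings. It was 0.73 in the authors' table, where the median of all genes was itself 0.35.

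Cldn15 differed between tumor and normal in opposite directions in the sorted populations. The log2 difference was 0.26 in Dclk1+ cells and -3.53 in Dclk1- cells, 3.79 apart, and this difference was not tested either. The value in Dclk1+ cells is small and became -0.02 with the local background subtracted.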

How the results depend on the processing

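The 6 member differences past 2-fold kept their direction in 36 of 36 recalculations (6 alternatives each) and stayed past 2-fold in 35, the exception being Cldn7 for Dclk1- tumor against normal (-0.43 with the local background subtracted). Of 216 recalculated member differences 178 moved by less than 1.5-fold. Averaging all probes is left out of these counts, since each member has 1 probe. Counts of members moved as follows, and the cause was not tested. With the blank mean subtracted, Dclk1+ against Dclk1- tumor had 1 member higher (Cldn1) and 2 lower (Cldn5, Cldn15), Dclk1+ tumor against normal 2 higher (Cldn1, Cldn2) and 1 lower (Cldn12), Dclk1- tumor against normal 2 higher (Cldn2, Cldn5) and 3 lower (Cldn4, Cldn7, Cldn15), and 4 differed between the tissues (Cldn1, Cldn2, Cldn5, Cldn15). With the local background subtracted, the counts were 1 higher (Cldn2) and 2 lower (Cldn7, Cldn15) in tumor, 1 higher (Cldn7) in normal, 2 higher (Cldn1, Cldn2) and 1 lower (Cldn7) for Dclk1+ tumor against normal, 1 lower (Cldn15) for Dclk1- tumor against normal, and 4 between the tissues (Cldn2, Cldn6, Cldn7, Cldn15). Median or 75th percentile scaling put 1 member lower (Cldn7) in Dclk1+ tumor against normal. The authors' table gave 1 higher (Cldn1) in tumor, and 2 higher (Cldn1, Cldn2) and 2 lower (Cldn7, Cldn12) for Dclk1+ tumor against normal, 3 lower (Cldn4, Cldn7, Cldn15) for Dclk1- tumor against normal, and 3 between the tissues (Cldn1, Cldn2, Cldn15). At 4-fold, Dclk1- tumor against normal had 0 higher and 1 lower (Cldn15).

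Scaling moved all genes. In the authors' table the median log2 difference of Dclk1+ against Dclk1- cells was 0.35 in tumor and 0.27 in normal, and the tumor against normal medians were -0.40 (Dclk1+) and -0.50 (Dclk1-). The share of 2-fold calls over all genes that were higher was 45.3% in Dclk1+ against Dclk1- tumor, but 24.5% with median scaling and 61.9% in the authors' table, and in normal 48.9% against 59.3% in that table. At 4-fold it was 60.2% in Dclk1+ against Dclk1- tumor and 73.5% in Dclk1+ tumor against normal. For tumor against normal it was 50.4% in Dclk1+ and 52.6% in Dclk1- cells, but 33.3% in both in the authors' table. The dim members Cldn1, Cldn5, Cldn6, Cldn8 and Cldn12 lay too near background for sizes to be read. No paired analysis was possible because each group has 1 array and the labels give no replicate numbers.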

Other observations

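Transcription factors known to act on claudin genes had 14 of 15 members with a probe, and Gata4, Grhl2, Grhl3 and Snai2 were not above background on any array. Cdx1, a homeobox factor of intestinal identity, had normalised intensities of 536 in Dclk1+ and 145 in Dclk1- tumor cells, against 726 in Dclk1+ and 206 in Dclk1- normal cells. It was higher in the Dclk1+ sample of each pair, at 1.38 in tumor and 1.24 in normal. Cdx2, a related homeobox factor, had 148 in Dclk1+ and 82.7 in Dclk1- tumor cells, against 482 in Dclk1+ and 330 in Dclk1- normal cells. It was lower in tumor, at -1.15 in Dclk1+ and -1.33 in Dclk1- cells. The part of these factors in the claudin signals was not tested.

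Hnf4a, a nuclear receptor of enterocyte maturation, was lower in tumor at -1.12 in Dclk1+ and -1.71 in Dclk1- cells. Klf4, a zinc finger factor of differentiated gut cells, had 3876 in Dclk1+ and 3459 in Dclk1- tumor cells, against 15066 in Dclk1+ and 14655 in Dclk1- normal cells, at -1.58 in Dclk1+ and -1.89 in Dclk1- cells for tumor against normal. The Dclk1+ value was -0.64 with the local background subtracted. Of the factors above background, 1 of 9 in tumor and 1 of 10 in normal were 2-fold higher in Dclk1+ than in Dclk1- cells. For tumor against normal, 3 of 10 were 2-fold lower in each sorted population. In each comparison 0 went the other way. Over all genes 1.76% were higher in Dclk1+ cells in tumor and 5.66% in normal, and 4.20% were lower in tumor in Dclk1+ and 5.24% in Dclk1- cells. The local background was at least as bright as the spot for 0.409% of probe spots in Dclk1+ and 1.12% in Dclk1- tumor cells, against 6.52% in Dclk1+ and 2.97% in Dclk1- normal cells, and the Cldn7 spot of Dclk1+ tumor cells was among them.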
